A study of Mus musculus with 30 samples.

Results

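Gastrocnemius muscle of mice that had lived for 64 weeks on either of 2 light schedules was compared here in the libraries whose circadian clock readout fell in the range that both schedules share. The readout was log2(Dbp/Bmal1), taken from the FPKM of each library. Every library between the higher of the 2 group minima (-2.14) and the lower of the 2 group maxima (1.40) was kept. This left 22 of 30 libraries, namely 7 of 14 from the LD group and 15 of 16 from the ADV group. LD mice were kept under a light-dark cycle that did not move. ADV mice lived under chronic jet lag, in which the cycle was advanced by 8 h every 4 days. All mice were male C57BL/6J of wild type, 14 weeks old at the start and singly caged with a running wheel. Each library held the RNA of 1 mouse, from gastrocnemius collected together with plantaris, and tissue was taken over several hours of the day while the light cycle of ADV mice coincided with that of LD mice. The sampling hour of single mice was not used here.

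The circadian clock of a muscle fiber is a feedback loop of transcription. BMAL1 pairs with CLOCK or NPAS2 and activates genes that carry E-boxes, among them the Per and Cry genes, Nr1d1, Nr1d2 and Dbp. The PER and CRY proteins then block this activation, and the Nr1d1 and Nr1d2 products (REV-ERBs) repress Bmal1, so that Dbp and Bmal1 messages peak at nearly opposite times of day. Their ratio therefore moves over a wide range within a day, and muscle sampled at different clock times differs in many genes that follow the clock.

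The ratio itself chose the libraries, so its values are a description. In the kept LD libraries it ran from -2.14 to 1.10 with a median of 0.25, and in the kept ADV libraries from -1.98 to 1.40 with a median of -0.87. A single library set each end of the range: LD replicate 34 at -2.14 and ADV replicate 21 at 1.40. Just inside these ends lay ADV replicate 29 at -1.98 and LD replicate 27 at 1.10, and just outside them ADV replicate 31 at -2.44 and LD replicate 28 at 1.47. The 7 LD libraries that were left out had ratios from 1.47 to 3.31. Inside the shared range the groups were still unevenly placed, since 13 of the 15 kept ADV libraries lay below -0.08, the second-lowest kept LD value. Dbp, a transcription factor of the clock output, was at 3.36, 15.6 and 26.4 FPKM (lowest, median and highest) in kept LD libraries, at 5.33, 8.28 and 17.8 FPKM in kept ADV libraries and at 25.3, 35.4 and 56.9 FPKM in the LD libraries outside the range. Bmal1 was at 12.1, 13.2 and 14.8 FPKM in kept LD libraries and at 6.75, 15.3 and 20.98 FPKM in kept ADV libraries. Kept LD libraries thus lay within the ADV span in Bmal1 and mostly above the ADV median in Dbp. Reads from Dbp overlap Sphk2 on the other strand, and the use of strand in the counting is not given in the sources used here.

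**Figure D1:**
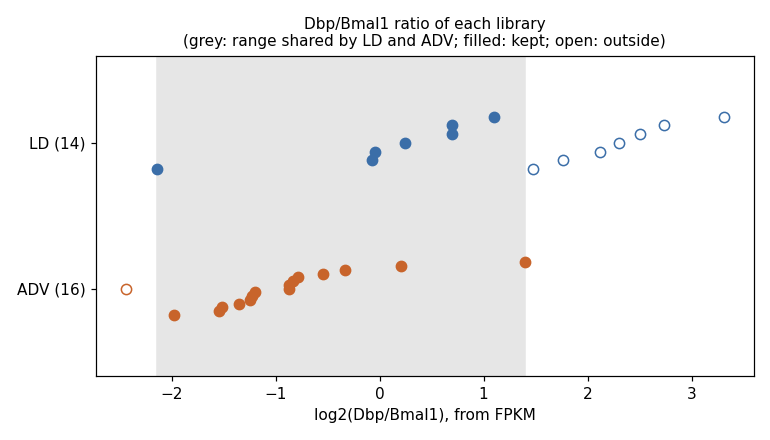
Dbp/Bmal1 ratio (x axis, log2 of the FPKM ratio) of each of the 14 LD and 16 ADV libraries, with the shared range in grey. Filled points are the 7 LD and 15 ADV libraries kept, open points those outside, and 1 LD library lies alone at -2.14.

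A close ratio did not always mean close levels of the other clock genes. Nr1d1, which encodes the repressor REV-ERB alpha, differed widely between the kept groups. It was at 36.99, 66.7 and 108 FPKM in the kept LD libraries and at 8.80, 20.9 and 83.1 FPKM in the kept ADV libraries. Of the 15 ADV libraries 9 lay below every kept LD library. The kept groups were also unequal in the ratio, with medians of 0.25 in LD and -0.87 in ADV. Only single pairs of libraries compare close ratios. The closest pair in the ratio, LD replicate 26 at 0.25 and ADV replicate 23 at 0.20, had 66.7 and 10.8 FPKM of Nr1d1, 0.69 and 0.18 FPKM of Npas2 and 1.85 and 3.42 FPKM of Per2. Another close pair, LD replicate 34 at -2.14 and ADV replicate 29 at -1.98, had 36.99 and 35.2 FPKM of Nr1d1 and 0.78 and 0.77 FPKM of Npas2. Per2 was at 1.21 and 2.36 FPKM in this pair. So the first pair was apart in all 3 genes, and the second pair was close in Nr1d1 and Npas2 and apart in Per2. Per2, a repressor of the loop, was at 0.68, 1.65 and 2.11 FPKM in kept LD libraries and at 0.98, 1.96 and 4.05 FPKM in kept ADV libraries, with 7 ADV libraries above every LD library. Npas2, a partner of BMAL1, spanned 0.59 to 0.89 FPKM in kept LD libraries and 0.18 to 1.09 FPKM in kept ADV libraries. The kept libraries are for this reason called libraries of overlapping Dbp/Bmal1 ratio, and not libraries of one clock phase.

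**Figure D2:**
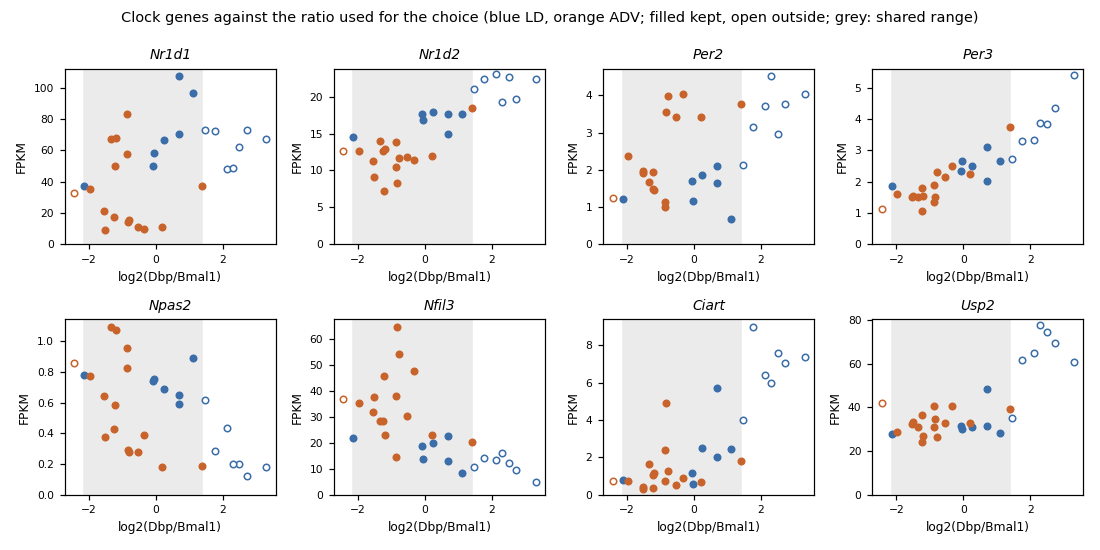
FPKM (y axis) of 8 clock genes against log2(Dbp/Bmal1) (x axis) in each library, LD in blue and ADV in orange, filled where kept. In Nr1d1, 9 of the 15 kept ADV libraries lie below every kept LD library, and the kept groups are also unequal in the ratio.

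The other clock genes were narrower in difference in the kept libraries than in all libraries where they had followed the ratio. These genes move with the ratio, so they are described without a test, on the scale of edgeR's log2 fold change of ADV over LD. Ciart, a repressor of the loop, went from -1.86 in all 30 libraries to -0.78 in the kept ones, Per3 from -0.80 to -0.39, and Dbp from -1.66 to -0.86. Usp2, a ubiquitin protease of the clock output, went from -0.55 to -0.01, and Per1 from -0.39 to 0.08. Among the PAR bZIP factors, Tef went from -0.28 to -0.12 and Hlf from -0.38 to -0.19, and Bhlhe40, Bhlhe41 and Cry2 went from -0.64, -0.30 and -0.17 to -0.48, -0.03 and 0.15. Per2 went from -0.07 to 0.73, and Nr1d1 stayed at -1.049 against -0.996. Of the genes that are high when Bmal1 is high, Bmal1 itself went from 0.64 to 0.26. Nfil3, a repressor of the same sites as DBP, was at 1.28 and 1.03, and Cry1 at 0.54 and 0.44. Clock, Rora and Npas2 were at -0.22, -0.28 and -0.39 in the kept libraries, against -0.09, -0.43 and 0.16 in all libraries. The differences of Nfil3, Cry1 and Nr1d1 thus kept most of their size in the kept libraries, and those of Ciart, Usp2, Per1 and Dbp shrank. Nr1d1 shares bases with Thra on the other strand.

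Which genes differed between schedules inside the shared range was tested on the counts with edgeR, and calls needed more than a 1.3-fold change besides an FDR under 0.05. In the kept libraries 37 of 12030 genes were called (0.308% of the genes tested), 21 higher in ADV (0.175%) and 16 lower (0.133%). In all libraries 252 genes were called (2.09%), 174 higher and 78 lower. Of these 252 whole-group differences 22 were also called in the kept libraries, in the same direction, 15 higher and 7 lower. That is 8.73% of the whole-group calls and 59.5% of the calls in the kept libraries. The fits share 22 libraries, so the overlap describes which calls remained and is no independent evidence. Without the fold limit, 81 genes had an FDR under 0.05 in the kept libraries (0.673%) and 1301 in all (10.8%). An unadjusted p under 0.05 was found for 2189 genes (18.2%) in the kept libraries. After removal of each library's trend with GC content 22 genes were called, 8 higher and 14 lower, so the share of rises depends on that correction. With DESeq2 140 genes were called, 100 higher and 40 lower.

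The whole-group differences were on the median somewhat smaller in the kept libraries, with a wider error. Among the 174 genes that were higher in ADV in all libraries the median log2 fold change was 0.55 with a median standard error of 0.14, and in the kept libraries 0.47 with a median standard error of 0.18. Among the 78 lower genes the median went from -0.47 to -0.39, and its standard error from 0.13 to 0.15. The median over all 12030 genes was 0.01 in the kept libraries and 0.00 in all libraries. Of the 252 genes, 171 had a fold change over 1.3 in the same direction in the kept libraries and 81 did not. Of the 230 that lost the call, 173 had an unadjusted p under 0.05 and 58 an FDR under 0.10. For 214 of the 230 the 95% confidence interval in the kept libraries included the value from all libraries, and for 57 it included 0. With the range redefined without LD replicate 34, which leaves 6 LD and 2 ADV libraries, the medians were 0.35 for the rises and -0.20 for the falls. A call lost in the smaller set of libraries therefore does not show that a gene did not differ there. The 252 genes include Dbp, which the choice of libraries used, and other clock genes that move with the ratio. In the list of clock genes high with Dbp 7 were called in all libraries, and in that high with Bmal1 3. These were not taken out of the medians and counts. The 252 genes were chosen by their size in all libraries, which by itself favours larger values there. The parts played by this choice, by fewer LD libraries and by a narrower clock range cannot be told apart.

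**Figure D3:**
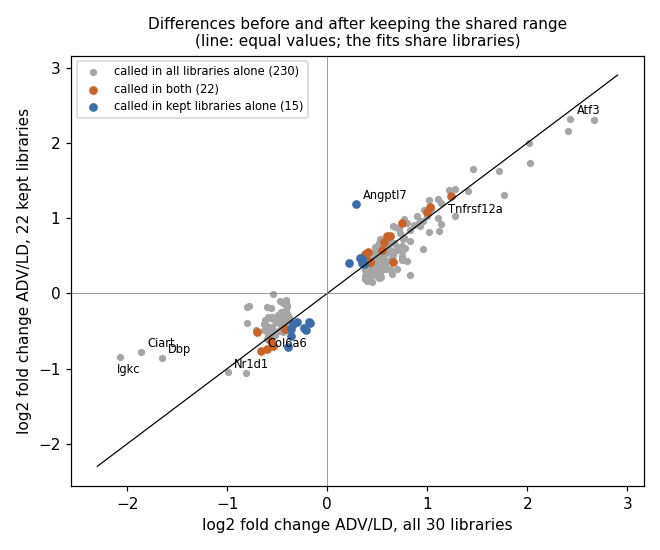
edgeR log2 fold change of ADV over LD in the 22 kept libraries (y axis) against that in all 30 libraries (x axis), for genes called in all libraries alone (grey, 230), in both (orange, 22) or in the kept libraries alone (blue, 15). Dbp, Ciart and Igkc lie nearer to 0 in the kept libraries, Tnfrsf12a and Atf3 lie close to the line of equal values, and Angptl7 lies far above it.

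Among the 21 genes called as higher in ADV in the kept libraries, Tnfrsf12a (chr17:23894419-23896442, minus strand, GRCm39) had the largest rise. It encodes Fn14, the receptor of the cytokine TWEAK. It was at 11.02, 19.8 and 45.6 FPKM in kept LD libraries and at 19.6, 56.5 and 102 FPKM in kept ADV libraries. The groups overlapped, and 11 of the 15 ADV libraries were above every LD library. Its log2 fold change was 1.29 (standard error 0.29, 95% interval 0.69 to 1.90, edgeR FDR 0.0391), against 1.24 (FDR 0.00152) in all libraries. The 2 libraries that set the range had 24.7 FPKM (LD replicate 34) and 38.3 FPKM (ADV replicate 21). The value of ADV replicate 21 was below the ADV median and inside the kept LD range, which reached 45.6 FPKM in LD replicate 26. With the range redefined without LD replicate 34, the log2 fold change was 0.45 (standard error 0.44). Most bases of Tnfrsf12a are shared with Hcfc1r1 on the other strand.

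Srxn1 (chr2:151947444-151953296, plus strand) encodes sulfiredoxin, which restores oxidised peroxiredoxins. It was at 7.96, 8.86 and 14.3 FPKM in kept LD libraries and at 10.5, 22.1 and 32.6 FPKM in kept ADV libraries. Again 11 ADV libraries were above every LD library, and the lowest ones overlapped with the LD range. On the log2 scale the rise was 1.15 (FDR 0.0152, standard error 0.21). Osgin1, an oxidative stress-induced growth inhibitor, was at 3.66, 4.68 and 9.59 FPKM in LD and at 5.08, 10.01 and 22.1 FPKM in ADV libraries, a rise of 0.93 on the log2 scale (FDR 0.0457, standard error 0.22). Its single high LD library, replicate 23, lay close to the ADV median. Ankrd1, a titin-associated ankyrin repeat protein induced by mechanical stress (chr19:36089365-36097499, minus strand), was at 3.86, 5.25 and 8.14 FPKM in LD and at 5.04, 12.8 and 22.9 FPKM in ADV libraries. Its log2 fold change was 1.08 (standard error 0.25, FDR 0.0411), with 12 ADV libraries above every LD library.

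Smaller rises also remained, each given as a log2 fold change. They were those of Ifrd1 (a regulator of myoblast differentiation, 0.76), Tubb6 (a beta-tubulin, 0.76), Rnf115 (a ubiquitin ligase, 0.68) and Ciapin1 (of cytosolic iron-sulfur cluster assembly, 0.57). Next came Slc38a3 (a glutamine transporter, 0.55), Aopep (an aminopeptidase, 0.53), Bag3 (a co-chaperone, 0.44) and Dot1l (a histone methyltransferase, 0.44). Cox6a1 (a subunit of cytochrome oxidase, 0.42), Miga2 (of mitochondrial fusion, 0.42) and Gm48551 (0.41) followed. Tubb6 was at 6.72, 7.06 and 8.24 FPKM in kept LD libraries and at 6.95, 12.0 and 17.4 FPKM in kept ADV libraries, with 13 ADV libraries above every LD library. The LD libraries were close together here and the ADV libraries were spread. Tubb6, Rnf115, Ciapin1 and Dot1l share exonic bases with genes on the other strand (Afg3l2, Polr3c, Coq9 and Plekhj1), and Gm48551 shares bases with Dohh on the same strand, so these values are uncertain.

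The genes that were lower in ADV and remained were Col6a6 (a collagen VI chain, log2 fold change -0.77), Zfp950 (a zinc finger protein, -0.74), Mmp9 (a gelatinase, -0.70), Xylt1 (which starts glycosaminoglycan chains, -0.64), Nr1d2 (REV-ERB beta, -0.51), Tenm3 (a teneurin, -0.48) and Xpr1 (a phosphate exporter, -0.48). Col6a6 (chr9:105565008-105705359, minus strand) was at 0.97, 1.15 and 1.65 FPKM in kept LD libraries and at 0.51, 0.70 and 0.99 FPKM in kept ADV libraries (standard error 0.12, FDR 0.00792). All but 1 of the ADV libraries were below every LD library. Tenm3 (chr8:48680717-49127725, minus strand) was at 2.02, 2.14 and 2.35 FPKM in LD and at 1.15, 1.58 and 2.00 FPKM in ADV libraries, and the groups did not overlap (standard error 0.08, FDR 0.0152). Of the 37 called genes, Tenm3 and Slc25a5 were the 2 without overlap. The share of all tested genes without overlap was not counted, so this is a description only. Nr1d2 was at 14.6, 17.7 and 17.9 FPKM in LD and at 7.20, 11.9 and 18.4 FPKM in ADV libraries. Its highest ADV value was that of ADV replicate 21, the library with the highest ADV ratio. Nr1d2 belongs to the clock loop that the choice of libraries used, and the kept groups were still unequal in the ratio. It is counted among the 37 calls, but like the other clock genes it is read here as a description. The unequal ratio holds for the other calls too, so none of the 37 is shown to differ apart from the ratio. With the ratio as a covariate edgeR called no gene in the kept libraries (1430 had an unadjusted p under 0.05). Col6a6 shares 133 exonic bases with Pik3r4 on the other strand.

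**Figure D4:**
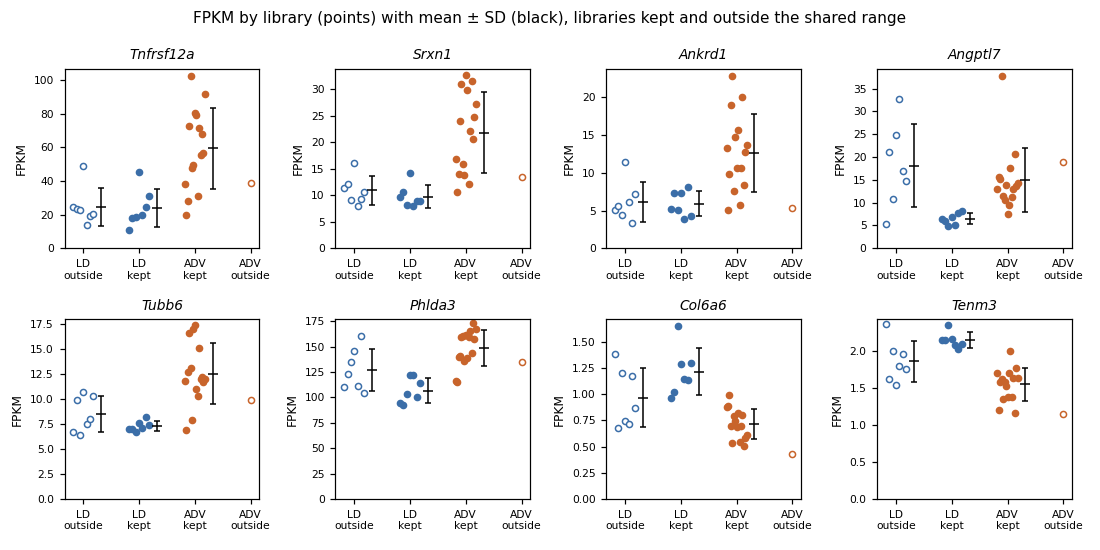
FPKM (y axis) in each library of 8 genes called in the kept libraries, for LD libraries outside and inside the shared range and ADV libraries inside and outside it, with mean ± SD in black. Kept ADV libraries lie mostly above kept LD libraries in the first 6 genes and below them in Col6a6 and Tenm3, and in Angptl7 the LD libraries outside the range reach 32.8 FPKM.

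A further 15 genes were called in the kept libraries and not in all libraries, 6 higher and 9 lower in ADV. Of these, 8 had an FDR under 0.05 in all libraries with a fold change under 1.3, and 7 had a larger FDR there. The 7 were Angptl7, Gclc, Col5a3, Gpc4, Sfxn3, Pkd2l2 and Gm55445. Angptl7 (chr4:148579640-148584917, minus strand), a secreted angiopoietin-like protein, had the largest difference of the 7. It was at 4.98, 6.46 and 8.18 FPKM in kept LD libraries, at 7.47, 13.6 and 37.8 FPKM in kept ADV libraries, and at 5.40, 17.0 and 32.8 FPKM in the LD libraries outside the range. Kept LD libraries were thus low, and 14 of the 15 ADV libraries exceeded all of them, while the other LD libraries covered most of the ADV range. The log2 fold change was 1.19 (standard error 0.22, FDR 0.0152) in the kept libraries and 0.29 (FDR 0.468) in all. Whether the kept and the other LD libraries differed was not tested, because the ratio that separates them was used for the choice.

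Among the other rises of this kind, Phlda3 (a p53 target that restrains AKT) was at 92.3, 103 and 122 FPKM in kept LD libraries and at 115, 158 and 173 FPKM in kept ADV libraries, a rise of 0.47 on the log2 scale (FDR 0.0152, standard error 0.09). Slc25a5, an ADP/ATP carrier of the inner mitochondrial membrane, was at 18.9, 23.4 and 24.9 FPKM in LD and at 25.1, 29.6 and 42.7 FPKM in ADV libraries, with no overlap and a log2 fold change of 0.46 (FDR 0.0175). Gclc, the catalytic subunit of glutamate-cysteine ligase in glutathione synthesis, was at 3.29, 3.66 and 3.79 FPKM in LD and at 3.57, 4.51 and 6.77 FPKM in ADV libraries (0.40, FDR 0.0475). Timm10, a chaperone of mitochondrial import, and Mfge8, a secreted glycoprotein that binds dying cells, rose by 0.40 and 0.38.

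The falls of this kind were Gm55445 (-0.71), Sobp (-0.57), Col5a3 (a collagen V chain, -0.49), Rnf150 (-0.47), Pkd2l2 (-0.46), 1700123M08Rik (-0.40), Gpc4 (a glypican, -0.40), Fut10 (-0.39) and Sfxn3 (a sideroflexin of mitochondria, -0.38). Col5a3 was at 6.53, 7.69 and 10.3 FPKM in kept LD libraries, at 4.74, 5.34 and 7.11 FPKM in kept ADV libraries and at 4.40, 4.84 and 6.66 FPKM in the LD libraries outside the range. Gpc4 was at 5.92, 6.70 and 8.31 FPKM in kept LD libraries, at 4.05, 5.29 and 6.63 FPKM in kept ADV libraries and at 4.20, 5.05 and 5.83 FPKM in the other LD libraries. In Col5a3 and Gpc4 the kept LD libraries were thus the high ones, and the other LD libraries lay lower, in Gpc4 within the range of ADV and in Col5a3 down to below the lowest ADV value. Gm55445 shares exonic bases with Ampd1 on the same strand, and Pkd2l2 shares bases with Fam13b on the other, so these values are uncertain.

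The 250 bases before the annotated start of each tested transcript (GRCm39) were searched on both strands for the E-box letters CACGTG, to which BMAL1 with its partners binds, and for TGANTCA, to which AP-1 factors bind. CACGTG was found in 8.29% of 12028 tested genes and in 0 of the 37 called genes. TGANTCA was found in 4.04% of tested genes, in 3 of the 21 called rises (Srxn1, Osgin1 and Bag3) and in 1 of the 16 called falls (Mmp9). These motifs were chosen after the called genes had been seen, and a match describes the letters and is not a measured binding site. The windows of the 3 rises are printed to show where the letters lie, with TGANTCA (on either strand) in capitals. Positions are counted back from the transcript start, and the matches begin at -102 and -45 in Srxn1 (chr2:151947194-151947443, plus strand), at -68 in Osgin1 (chr8:120163607-120163856, plus strand) and at -53 in Bag3 (chr7:128125090-128125339, plus strand).
Srxn1: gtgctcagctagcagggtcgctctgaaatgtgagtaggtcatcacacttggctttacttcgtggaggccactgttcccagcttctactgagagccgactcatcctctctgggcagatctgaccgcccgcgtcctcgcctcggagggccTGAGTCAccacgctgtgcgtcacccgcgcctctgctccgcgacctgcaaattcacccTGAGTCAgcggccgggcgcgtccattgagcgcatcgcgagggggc
Osgin1: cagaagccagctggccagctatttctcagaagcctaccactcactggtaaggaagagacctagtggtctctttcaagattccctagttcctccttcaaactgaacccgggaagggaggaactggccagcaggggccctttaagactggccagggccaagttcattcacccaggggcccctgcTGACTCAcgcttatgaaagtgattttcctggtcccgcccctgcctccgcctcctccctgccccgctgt
Bag3: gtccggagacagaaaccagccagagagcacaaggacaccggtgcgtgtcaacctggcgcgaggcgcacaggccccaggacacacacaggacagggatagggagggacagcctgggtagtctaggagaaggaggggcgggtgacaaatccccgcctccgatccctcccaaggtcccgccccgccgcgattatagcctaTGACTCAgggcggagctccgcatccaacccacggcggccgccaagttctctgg

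Several gene lists were then described by their counts and medians, beside a median of 0.01 over all genes in the kept libraries. The immediate early genes, among them transcription factors, are induced by cells within minutes of a stimulus. All were above 0 in the kept libraries (23 of 23 tested, median log2 fold change 0.50). None had an FDR under 0.05 there, against 13 in all libraries (median 0.51). In the kept libraries 16 of the 23 had an unadjusted p under 0.05, against 18.2% of all genes, and the 13 in all libraries stand against 10.8% of all genes at that FDR, a background that holds for the lists below as well. Atf3 was at 1.63, 4.10 and 18.1 FPKM in kept LD libraries and at 2.77, 20.4 and 124 FPKM in kept ADV libraries, a log2 fold change of 2.32 with a standard error of 0.67 (FDR 0.0864). Fos was at 0.66, 2.15 and 4.37 FPKM in LD and at 1.61, 4.12 and 41.5 FPKM in ADV libraries (2.00, FDR 0.121). The ADV libraries were spread over more than an order of magnitude in these genes, and 7 to 9 of the 15 lay above every kept LD library. Egr1 had a log2 fold change of 1.65 (FDR 0.0975). Btg2 (an antiproliferative factor) and Hbegf (a growth factor of the EGF family) were at 1.23 (FDR 0.0612) and 0.88 (FDR 0.0827). Trib1, a pseudokinase outside this list, was at 0.90 (FDR 0.109), and Otud1, a deubiquitinase, at 1.74 (FDR 0.199).

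Of the 22 heat shock genes 20 were above 0 in the kept libraries (median 0.16), with an FDR under 0.05 for 1, Bag3, against 12 higher in all libraries (median 0.22). Hspa1b and Hspa1a, the inducible HSP70 genes, had log2 fold changes of 2.30 (FDR 0.103) and 2.16 (FDR 0.0901). They are near copies of each other, so the split of reads between them is uncertain. Dnajb1, an HSP40 co-chaperone, was at 1.0035 (FDR 0.242). Of the 12 genes of stretch and sarcomere stress 11 were above 0 (median 0.83, against 0.86 in all libraries), with an FDR under 0.05 for Ankrd1 in the kept libraries and for 8 in all. Csrp3, the muscle LIM protein, was at 10.4, 97.7 and 178 FPKM in kept LD libraries and at 85.4, 247 and 433 FPKM in kept ADV libraries, a fitted difference of 1.38 on the log2 scale (FDR 0.0612, standard error 0.36). Xirp1, an actin-binding protein of the intercalated disc and of damaged fibers, was at 1.37 (FDR 0.0756), Rcan1, an inhibitor of calcineurin, at 1.39 (FDR 0.0529), and Ankrd2 at 0.99 (FDR 0.114). Of the 18 tested genes of the integrated stress response 15 were above 0 (median 0.25 in the kept and in all libraries), with none at an FDR under 0.05 in the kept libraries and 5 in all.

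The lists of atrophy, glucocorticoid response and fuel use had no gene at an FDR under 0.05 in the kept libraries. The 16 atrophy genes had a median of 0.07, with Trim63, the ubiquitin ligase MuRF1, at 0.59 (FDR 0.371). The 12 glucocorticoid response genes had a median of 0.30 in the kept libraries and 0.00 in all. Pdk4, a kinase that turns muscle from glucose to fat as fuel, was at 51.8, 102 and 323 FPKM in kept LD libraries, at 67.8, 253 and 923 FPKM in kept ADV libraries and at 121 to 663 FPKM in the other LD libraries, a log2 fold change of 1.02 (FDR 0.250) against 0.22 in all. Of the 15 genes of fuel use 14 were above 0 (median 0.22), and the exception was Pfkfb3, an activator of glycolysis, at 27.4, 62.6 and 126 FPKM in LD and at 7.11, 28.7 and 69.0 FPKM in ADV libraries (-1.06, FDR 0.0848). Pfkfb3 was called in all libraries (-0.81, FDR 0.0452).

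The myogenic factors drive muscle gene expression and fiber repair, and the TWEAK and TNF receptors signal to NF-κB. Of 13 tested myogenic genes 11 were above 0 in the kept libraries (median 0.32), none with an FDR under 0.05, against 6 in all libraries. Of 18 genes of TWEAK, TNF and NF-κB signaling 10 were above 0 (median 0.03), and Tnfrsf12a alone had an FDR under 0.05. Birc3, an inhibitor of apoptosis that NF-κB induces, was at -0.23 (FDR 0.190). The FPKM of the 15 genes that the study plots, a list chosen on these samples, were compared with a two-sided exact Wilcoxon rank-sum test in the 7 LD and 15 ADV libraries kept. The exact p was under 0.05 for 7 of the 15 genes, not adjusted for the number of genes, and 1 of the 14 tested by edgeR had an FDR under 0.05 over all genes. In these 7 the exact p was 0.00110 for Tnfrsf12a, 0.00508 for Myf6, 0.00661 for Rela and 0.0109 for Ddit3. It was 0.0137 for Nfkb2 and 0.0262 for both Myog and Nfkb1. After Benjamini-Hochberg adjustment of the Wilcoxon p over the 15 genes, 5 stayed under 0.05, and Myog and Nfkb1 were at 0.0561. This adjustment does not account for the choice of the list on these samples. The share of all genes with a low p in the Wilcoxon test was not counted, so these counts are a description. Myog, the factor of terminal differentiation, was at 1.06, 1.70 and 2.18 FPKM in LD and at 1.31, 2.56 and 4.90 FPKM in ADV libraries (edgeR log2 fold change 0.63, FDR 0.121). Myf6 was at 41.7, 53.8 and 58.0 FPKM in LD and at 50.1, 63.5 and 83.0 FPKM in ADV libraries (0.34, FDR 0.0796). In both genes 11 ADV libraries were above every LD library.

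Myod1, which starts the myogenic program, was at 4.51, 7.63 and 12.3 FPKM in kept LD libraries and at 5.51, 10.99 and 21.3 FPKM in kept ADV libraries (exact p = 0.0911, edgeR log2 fold change 0.62, standard error 0.25, FDR 0.202). Dll1, a Notch ligand, was at 1.05, 1.15 and 1.80 FPKM in LD and at 0.81, 1.75 and 2.34 FPKM in ADV libraries (exact p = 0.106, log2 fold change 0.33 against 0.58 in all libraries). In both genes the ADV median was higher and the ranges overlapped widely. Ddit3 (CHOP, of the stress response) was at 5.17, 6.88 and 8.57 FPKM in LD and at 5.53, 11.8 and 16.0 FPKM in ADV libraries (log2 fold change 0.62, FDR 0.0782), and Atf4 at 0.16 (exact p = 0.123). Tnfsf12, the TWEAK ligand, was at 0.15 (exact p = 0.142) and Tnfrsf1a, a TNF receptor, at 0.15 (exact p = 0.210). Rela, Nfkb1 and Nfkb2, the NF-κB subunits with a low p, differed by only 0.16, 0.10 and 0.15 (FDR 0.157, 0.233 and 0.221). Relb and the receptor Tnfrsf1b were at 0.03 and 0.03 (exact p = 1.0 for each), and Tnf had at most 0.118 FPKM in every kept library, too few reads for a difference to be detectable. Ddit3 and Dll1 share exonic bases with Mars1 and Fam120b on the other strand, and Tnfsf12 shares bases with Tnfsfm13 on the same strand.

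By the drop in the size of the log2 fold change from all to the kept libraries, the first 5 whole-group differences were those of Igkc, Ciart, Dbp, Cep85l and Tfcp2l1, of which Dbp was used in the choice of libraries. Igkc, an antibody light chain of plasma cells, went from -2.07 to -0.84 (FDR 0.489), with 0 to 26.998 FPKM in kept LD libraries and up to 61.5 FPKM in the other LD libraries. Cep85l went from -0.81 to -0.18 (FDR 0.675), with LD levels of 3.47 to 6.86 FPKM inside and 4.46 to 15.1 FPKM outside the range. Tfcp2l1, a grainyhead-like transcription factor, went from -0.78 to -0.18 (FDR 0.694), with 2.24 to 7.31 FPKM inside and 3.44 to 13.3 FPKM outside. In each of these 3 genes the highest LD values were in libraries that the range left out. Those that gained most in size were Pfkfb3, Ankrd2, Trib1, Btg2 and Hbegf, given above, and none of the 5 was called in the kept libraries.

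Markers of cell types were read for composition, since in bulk tissue fewer cells of a type and less RNA per cell cannot be told apart. The 12 skeletal muscle markers summed to 93287 to 120310 FPKM in kept LD libraries and 88363 to 124030 in kept ADV libraries, and the tissue label held. The 8 slow fiber genes summed to 59.7 to 1094 FPKM (median 563) in LD and 280 to 2126 FPKM (median 856) in ADV libraries (7 of 8 above 0, median log2 fold change 0.46, none with an FDR under 0.05). Myh7 was lowest in LD replicates 23 and 27, at 3.88 and 6.36 FPKM. It was at 28.7 to 91.7 FPKM in the other kept LD libraries and at 15.7 to 233 FPKM in kept ADV libraries. This order did not hold in every slow fiber gene. In Myl3 and Myl2, LD replicate 27 was at 161 and 131 FPKM, above LD replicate 35 at 76.9 and 96.5 FPKM. Csrp3 was also lowest in LD replicates 23 and 27, at 10.4 and 59.0 FPKM. Adipocyte genes summed to 216 to 413 FPKM in LD and 245 to 777 FPKM in ADV libraries (8 tested, median 0.41), with Fabp4 at 0.42 (FDR 0.130). Schwann cell genes summed to 28.1 to 47.5 and 26.8 to 83.9 FPKM (6 tested, median 0.41), and endothelial genes to 79.7 to 103 and 89.1 to 119 FPKM (8 tested, median 0.11), with Pecam1 at 0.19 (FDR 0.101). Fibroblast genes (8 tested, median -0.04) summed to 641 to 987 and 615 to 897 FPKM, with Col3a1 at -0.32 (FDR 0.157). Leukocyte (8 tested), smooth muscle (6), satellite cell (3) and denervation (5) genes had medians of -0.07, 0.10, 0.01 and -0.04. Their summed levels were 97.3 to 219, 32.6 to 60.2, 8.10 to 10.1 and 12.3 to 15.3 FPKM in LD and 92.3 to 186, 36.5 to 73.3, 8.30 to 11.1 and 10.4 to 18.5 FPKM in ADV libraries. Markers listed at 0 in some kept library were 2 of the leukocyte list, 1 of the denervation list and none of the other marker lists. The part of cell composition in the 37 calls was not tested.

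Read pairs on exons numbered 19015401 to 28512674 in kept LD libraries and 18875468.5 to 25699603.5 in kept ADV libraries. The share of reads on exons was 91.2 to 91.3% in kept LD libraries and 91.1 to 92.7% in kept ADV libraries, and its part in the result was not tested. Without ADV replicates 25 and 34, the 2 of highest share, 25 genes were called (12 higher and 13 lower), of which 21 were among the 37. Without LD replicates 23 and 27, which leaves 5 LD libraries, no gene was called by edgeR, with 1443 genes at an unadjusted p under 0.05. The log2 fold changes were then 1.17 for Tnfrsf12a, 1.04 for Srxn1 and 1.06 for Angptl7, and the median over the 174 whole-group rises was 0.41.

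How far the calls rested on single libraries was seen by leaving out each of the 22 in turn. The number of called genes ran from 7 without LD replicate 27 to 75 without ADV replicate 22. It was more than 1.5 times lower in 13 of the 22 cases (LD replicates 21, 22, 23, 26, 27 and 34 and ADV replicates 24, 25, 29, 32, 33, 35 and 36), and more than 1.5 times higher in 4 (ADV replicates 21, 22, 23 and 27). Tubb6, Xylt1, Tenm3, Phlda3, Sobp and Col6a6 had an FDR under 0.05 in all 22 cases. Angptl7, Srxn1 and Sfxn3 had one in 21, Tnfrsf12a in 10, Ankrd1 in 8 and Osgin1 in 7. The log2 fold change of Tnfrsf12a stayed between 1.17 and 1.53, that of Ankrd1 between 0.98 and 1.18 and that of Osgin1 between 0.81 and 1.13, so what changed was the side of the threshold.

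**Figure D5:**
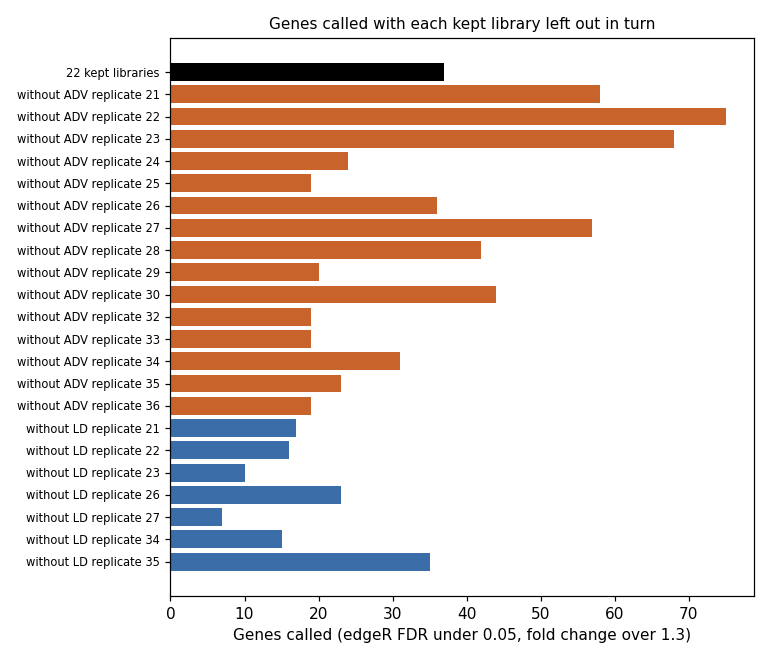
Number of genes called (x axis) in the 22 kept libraries (black) and with each LD (blue) or ADV (orange) library left out. The number ran from 7 to 75 around the 37 of the full set.

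Narrower definitions of a shared clock state left few calls. With the 5 LD and 5 ADV libraries that could be paired within 0.5 in the ratio, 2 genes were called, of which 1 was among the 37. With the ratio as a covariate in the 22 kept libraries no gene was called by edgeR (1430 had an unadjusted p under 0.05), and Tnfrsf12a had a log2 fold change of 1.14, Srxn1 of 1.01, Ankrd1 of 1.04, Angptl7 of 1.22 and Col6a6 of -0.68. Without LD replicate 34 the shared range would hold 6 LD and 2 ADV libraries, with 2 calls. Tnfrsf12a was then at 0.45 (standard error 0.44), Srxn1 at 0.62, Col6a6 at -0.41, Ankrd1 at 1.04 and Angptl7 at 1.14. Without ADV replicate 21 it would hold 3 LD and 14 ADV libraries, with 0 calls by edgeR and 1525 genes at an unadjusted p under 0.05. Tnfrsf12a was at 1.77 there, Srxn1 at 1.19, Ankrd1 at 0.86, Angptl7 at 1.15 and Col6a6 at -0.57. In the matched libraries these 5 genes were at 1.27, 1.04, 1.07, 1.38 and -0.46, in the order Tnfrsf12a, Srxn1, Ankrd1, Angptl7 and Col6a6. With the range set on Nr1d1/Npas2 in place of Dbp/Bmal1, 9 LD and 9 ADV libraries were kept and 7 genes were called. With the range set on Per3/Cry1, 9 LD and 4 ADV libraries were kept and edgeR called 0 genes (1530 at an unadjusted p under 0.05). In the redefined and matched sets the number of libraries and the clock range changed together, so their effects on the count cannot be told apart. The covariate fits kept the libraries and gave 0 calls by edgeR in the 22 and also in all 30 (1667 genes at an unadjusted p under 0.05). The ratio was unequal between the schedules, so these fits cannot tell schedule and ratio apart either. In the 22, the medians of the whole-group rises and falls were 0.45 and -0.35 with the covariate, against 0.47 and -0.39 without it. The standard error was 0.34 against 0.29 for Tnfrsf12a, and 0.24 against 0.21 for Srxn1.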

How the data were processed

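RNA of gastrocnemius muscle from 14 LD and 16 ADV mice was analysed, 1 library per mouse, grouped by the sample labels. The authors used Trimmomatic for trimming, STAR 2.7.10a for alignment to GRCm39 and HOMER 4.11 for counting on exons (versions from the submitters' processing notes). The authors deposited these as estimated counts without normalization, in which each mate of a pair is 0.5 read. Because of this 14.8% of the counts were not whole, and they were rounded before testing. The authors also deposited FPKM values, in which HOMER scales a count by the library total and the exon length. The strand setting of the counting is not given in the sources used here.

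The ratio log2(Dbp/Bmal1) was computed from FPKM, and the libraries within the range of both groups were kept. A gene entered the test if its mean over all 30 libraries exceeded 20 reads and 0.5 FPKM (12030 genes). The quasi-likelihood test of edgeR 4.0.16 with TMM factors was run in R 4.3.3. A gene was called at a Benjamini-Hochberg FDR under 0.05 and a fold change over 1.3. FPKM of the 15 genes plotted by the study were compared with the two-sided exact Wilcoxon rank-sum test (scipy 1.17.1, full enumeration where values tied). Alternatives were DESeq2 1.42.0, limma 3.58.1 on log2(FPKM + 0.1) and log2(FPKM + 1), other normalizations, filters and ranges, a ratio covariate, matching, a GC content correction and leaving out each library. The 3 sets that leave out 2 libraries each were added after the data were seen. The script was tested on simulated data.

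Named were the clock genes (1 of them is not reported here), the 15 plotted genes, the largest rises and falls called in the kept libraries, up to 4 genes of each list, and the whole-group DEGs with the largest change and those that lost most and least. All other called genes were named after their values were seen. Members, lists and rules were chosen with earlier results of these data known. Replicates are separate mice, and no pair of kept libraries of the same schedule agreed within sampling noise. Depth was 18875468.5 to 28512674 read pairs on exons per kept library, at which genes with few reads have a large counting error. Histology, grip strength and muscle weight were not analysed here.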

Additional observations from a re-analysis of the deposited data

Results flagged for a closer look

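In the kept LD group (n = 7) the highest or lowest library was compared with its nearest neighbour by Dixon's criterion (critical value 0.568), for the genes named other than Dbp and Bmal1. Of 93 genes 15 stood apart, where chance gives about 1 in 20 groups. The kept ADV group (n = 15) is too large for this criterion.

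LD replicate 26 was the high library in Srxn1 (14.3 FPKM), Aopep (4.35 FPKM), Xirp1 (147.7 FPKM), Rcan1 (103 FPKM), Hbegf (4.75 FPKM) and Btg2 (8.87 FPKM). LD replicate 35 was the high one in Ciart (5.73 FPKM), Usp2 (48.5 FPKM), Tfcp2l1 (7.31 FPKM) and Trim63 (359.8 FPKM) and the low one in Cox6a1 (14.6 FPKM) and Pkd2l2 (0.56 FPKM). LD replicate 23 was the high one in Osgin1 (9.59 FPKM), Tenm3 (2.35 FPKM) and Igkc (26.998 FPKM).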

How the results depend on the processing

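Of the settings that kept all 22 libraries, RLE size factors, library size alone, the filter over the kept libraries and both limma fits left the number of called genes (37) and of whole-group DEGs called again (22) within 1.5 times. Each alternative is given as the number called and, after it, the number of whole-group DEGs among them. DESeq2 gave 140 and 82, a spread shared over all 30 libraries 66 and 43, no filter on low genes 16 and 9, and GC removal 22 and 12. No fold change limit gave 81 called. The rises and falls were 100 and 40 with DESeq2, 48 and 18 with the shared spread, 29 and 11 with limma on log2(FPKM + 0.1) and 26 and 6 with limma on log2(FPKM + 1). The ratio as a covariate gave 0 and 0 in the kept libraries and 0 and 0 in all (edgeR, 1430 and 1667 genes at an unadjusted p under 0.05). Ranges on Nr1d1/Npas2 and Per3/Cry1 gave 7 and 4, and 0 and 0. The range without its lower LD end gave 2 and 1, that without its upper ADV end 0 and 0, and matching within 0.5 gave 2 and 2. Leaving out both end libraries gave 20 and 12, and leaving out LD replicates 23 and 27 gave 0 and 0, both added after the data were seen. Leaving out each library gave 7 to 75 called, 4 to 48 whole-group DEGs, and 5 to 9 plotted genes with an exact p under 0.05. With the Wilcoxon p adjusted over the 15 genes, 1 to 7 plotted genes were under 0.05, against 5 in the 22 kept libraries.

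Among 7 same-numbered pairs the deviations from the group means correlated above 0.1 in 3, and 3 of the 7 LD libraries correlated best with the ADV library of their own number, so the numbers were not taken to pair the mice. With the replicate number as a block 3 and 1 genes were called, and in the same libraries without the block 1 and 0. Tnfrsf12a had a log2 fold change of 0.87 with the block and 0.85 without it, against 1.29 in the 22 kept libraries.

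None of the 37 called genes changed sign in any of these fits, which share most libraries, and 734 of 1591 combinations of a called gene and a fit lost the FDR of 0.05. Signs changed for uncalled genes only. Igkc was at 0.43 and 0.028 in the limma fits, 0.99 without the upper end, 0.83 in the matched set, 0.26 with the block and 1.03 without LD replicates 23 and 27, and ran from -1.06 to 0.80 without single libraries, the latter without LD replicate 23. Cep85l was at 0.067 and Trim63 at -0.29 without the lower end. Tfcp2l1 was at 0.23 without the upper end, and -0.30 to 0.17 without single libraries. Tnfrsf1b was at -0.093 with the block, -0.073 in the same libraries without it, and -0.020 to 0.077 without single libraries. Relb was at -0.13 with the Per3/Cry1 range, -0.029 after GC removal, -0.012 without both end libraries, -0.0052 without ADV replicates 25 and 34, and -0.028 to 0.079 without single libraries. The cause of these changes was not tested. Depth and the 7 LD libraries limit small differences and genes with few reads.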
